A study of Mus musculus with 24 samples.

Results

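Described here is the comparison of RNA-seq libraries from mouse 3T3-L1 cells that carry the genotype label LSD1 overexpression with libraries from control cells, both at day 7 of adipogenic induction. The members were chosen by genotype label, day and assay alone, which gave 6 libraries, 3 per group, of 12 RNA-seq libraries and 24 samples in the series. 3T3-L1 is an immortalised mouse preadipocyte line that forms lipid-laden fat cells after hormonal induction. Both groups were grown in DMEM with serum and received the same cocktail at confluence: 500 µM isobutylmethylxanthine, 1 µM dexamethasone, 10 µM rosiglitazone and 10 µg/ml insulin. The medium was replaced at day 3 and held insulin until day 7. The groups therefore differ in the labels only by genotype, and the other 6 RNA-seq libraries hold the same genotypes at day 0, before induction. Titles call the 3 libraries of a group biological replicates. Whether the labelled cells are 1 clone, a pool or several lines, and which promoter drives the construct, is not given in the sources used here, so the label and any other difference between the cell lines cannot be told apart.

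LSD1, encoded by Kdm1a, is a histone demethylase that removes methyl groups from lysine 4 and lysine 9 of histone H3 and works in complexes such as CoREST. In preadipocytes the hormonal cocktail starts a cascade in which early factors switch on Pparg and Cebpa, which then turn on the genes of lipid storage while genes of the fibroblast state are shut down. The series title places LSD1 in the formation of beige fat cells, which carry more mitochondria than white fat cells.

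Levels are in CPM (counts relative to the library total after scaling by edgeR's TMM factors) with 1 transcript per gene, as mean ± SD over 3 libraries, and differences are log2 values, labelled minus control, with their standard error (SE). Totals over all transcripts were 27881281 to 31008490 counts in the control and 27512273 to 30030309 in the labelled libraries. The TMM factors were 1.058 to 1.08 in the control and 0.8907 to 0.9114 in the labelled libraries. Labelled libraries had counts for 14103 to 14287 features and control libraries for 15252 to 15445, and the 100 most abundant genes took 21.8% to 22.65% and 19.66% to 20.03% of counts. A gene was called when its adjusted p was below 0.05 by edgeR's quasi-likelihood test with Benjamini-Hochberg adjustment over 13356 genes, two-sided. "Rose" and "fell" below refer to such calls between labels, not to changes over time. CPM is not divided by transcript length, so levels are compared between groups and not between genes.

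Kdm1a (chr4:136550533-136602723, minus strand), the gene named by the label, did not have a higher level in the labelled libraries at day 7. It stood at 66.1, 67.6 and 74.5 CPM in the control libraries and at 54.3, 55.4 and 54.4 CPM in the labelled libraries. All 3 labelled libraries lay below all 3 control libraries, and the log2 difference was −0.34 (SE 0.0967), with an adjusted p of 0.00751 by edgeR's quasi-likelihood test. At day 0 the means were 83.1 ± 3.76 and 97.5 ± 7.47 CPM, a log2 difference of 0.23 that did not pass (edgeR adjusted p = 0.0969). Without labelled day 0 replicate 1, which stood apart from the other 2, it was 0.29 and passed (edgeR adjusted p = 0.0131). The files count mouse RefSeq transcripts, and whether a transcript of the construct would be counted among them is not given in the sources used here. The measured level thus does not match the label, and every direction below is between libraries labelled LSD1 overexpression and libraries labelled control.

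Of 13356 genes tested, 8491 (63.6%) were called, 4027 (30.2%) higher and 4464 (33.4%) lower in the labelled libraries. The falls were the larger changes. The median log2 difference was 0.90 among the genes that rose and −1.42 among those that fell, 2917 genes fell and 1763 rose by at least 1 on the log2 scale, and 254 fell and 33 rose by at least 5. Genes that fell also had lower levels, with a median of 15.3 CPM over day 7 against 56 CPM for genes that rose. Of the falls, 142 had 0 counts in the labelled libraries, and 6 rises had 0 in control, so these sizes are uncertain. Transcript length and base composition moved with the calls over the 13059 tested genes that have both values. The median transcript length was 3434 bases for genes that fell, 2460 bases for genes that rose and 2805 bases for genes not called, and the median GC content was 49.48%, 52.24% and 49.55%. The Spearman correlation of the day 7 log2 difference across genes, which are not independent, was −0.193 with length and 0.138 with GC content, and their part in the results was not tested. All 3 labelled libraries lay above all 3 control libraries for 4776 tested genes (35.8%) and below them for 5218 (39.1%). The median over all tested genes was −0.052 and moved to −0.298 when libraries were scaled by their total count alone, which left 2908 genes higher and 5667 lower (33.9% of calls higher, against 47.4% with TMM scaling). A difference of less than about this shift therefore depends on the scaling.

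**Figure D1:**
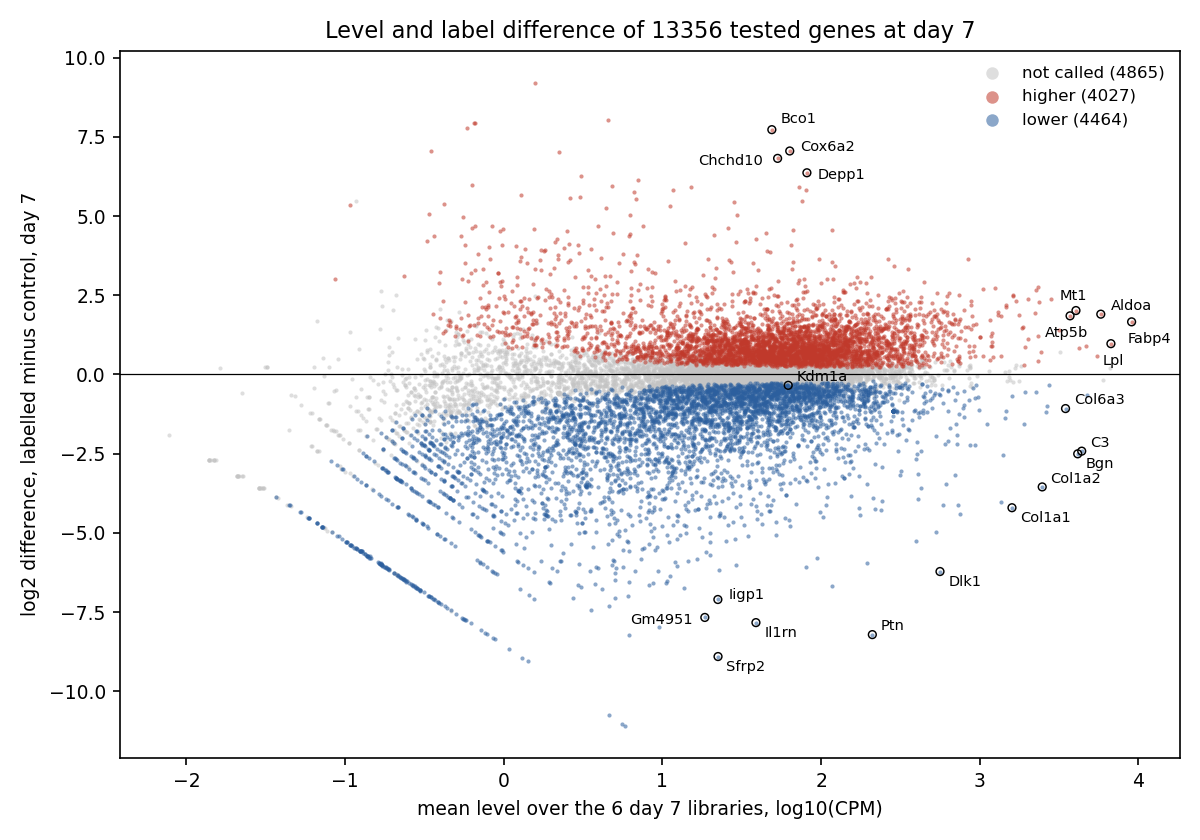
Each point is a tested gene, placed by log10 of its mean CPM over the 6 day 7 libraries (horizontal) and its log2 difference, labelled minus control (vertical), and coloured as higher (4027), lower (4464) or not called (4865), without 3 tested genes that had no count at day 7. Falls reach further from 0 than rises, the lowest straight line of points at the left holds genes with 0 counts in the labelled libraries, and Kdm1a lies close to 0 at −0.34.

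The largest rises on the log2 scale among genes with at least 10 CPM included genes of mitochondria, lipid oxidation and retinoid metabolism. Bco1 (chr8:117095865-117133720, plus strand), which cleaves beta-carotene into retinal, was at 0.178, 0.51 and 0.666 CPM in the control libraries and at 105, 96 and 91.4 CPM in the labelled libraries, a log2 difference of 7.73 (SE 0.305) with an edgeR adjusted p of 7.67e-10. Cox6a2 (chr7:128205435-128206366, minus strand), the heart and muscle isoform of a cytochrome c oxidase subunit, went from 0.935, 1.11 and 0.791 to 121, 123 and 133 CPM, or 7.05 (SE 0.379). Both genes were at or below 1.11 CPM in every control library and at or above 91.4 CPM in every labelled one. Chchd10 (chr10:75933130-75937750, plus strand), a protein of the mitochondrial intermembrane space, was at 1.11, 0.973 and 0.708 CPM and at 103, 102 and 111 CPM, or 6.82 (SE 0.225). Acox2 (chr14:8225511-8258839, minus strand), a peroxisomal oxidase for branched-chain fatty acids and bile acid precursors, was at 1.02, 1.9 and 2.29 and 51, 58.5 and 62.1 CPM, or 5.03 (SE 0.293). The groups did not overlap for any gene of this paragraph.

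Other genes of the largest rises act in calcium, sphingolipid and hormone biology. Atp2a3 (chr11:72961169-72993043, plus strand), a calcium pump of the endoplasmic reticulum, stood at 2.18, 3.2 and 1.75 CPM in control and at 125, 153 and 150.3 CPM in labelled libraries, a log2 difference of 5.91 (SE 0.521). Ghrh (chr2:157329496-157346655, minus strand), which encodes growth hormone releasing hormone, stood at 3.7, 3.34 and 3.00 and 149, 142 and 151 CPM, or 5.46 (SE 0.2). Ghrh had the narrower spread of the pair, with labelled libraries from 142 to 151 CPM. Sptlc3, a subunit of the enzyme that starts sphingolipid synthesis, rose by 5.90 (SE 0.462) from 0.483 ± 0.483 to 29.9 ± 3.00 CPM, and Acer2, a ceramidase, by 5.45 (SE 0.18) from 1.26 ± 0.157 to 55.5 ± 1.42 CPM. Cyp4b1, a cytochrome P450, rose by 5.84 (SE 0.457) and the adhesion receptor Adgrf5 by 5.83 (SE 0.21), from 2.77 ± 0.572 to 158 ± 8.79 CPM. Depp1, which responds to FOXO factors, rose by 6.37 (SE 0.455) to 161 ± 17 CPM. The long noncoding RNA 6030408B16Rik, which has no position here, rose by 5.30 (SE 0.237).

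The falls of largest size included secreted factors of mesenchymal cells. Sfrp2 (chr3:83766321-83774314, plus strand), a secreted modulator of Wnt signalling, was at 47.6, 47.9 and 38.7 CPM in the control libraries and at 0.165, 0 and 0.104 CPM in the labelled libraries, a log2 difference of −8.90 (SE 0.618) with an edgeR adjusted p of 8.47e-08. Ptn (chr6:36714928-36810179, minus strand), the heparin-binding growth factor pleiotrophin, was at 429, 386 and 442 and 1.54, 1.65 and 1.04 CPM, or −8.21 (SE 0.208). Dlk1 (chr12:109453455-109463336, plus strand), the preadipocyte factor that holds cells back from fat cell formation, was at 1115, 1239.9 and 969 CPM and at 9.98, 13.7 and 20.8 CPM, or −6.22 (SE 0.314). In the labelled libraries Sfrp2 and Ptn did not exceed 1.65 CPM, while Dlk1 was still detected at a mean of 14.8 ± 5.49 CPM. Sned1, a matrix protein, fell by 6.69 (SE 0.602), from 233 ± 44.5 to 2.24 ± 0.815 CPM.

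Genes of cell division formed another group among these falls. Ccnb2 (chr9:70407689-70421554, minus strand), which encodes cyclin B2 of mitosis, was at 20.1, 22.9 and 19.4 CPM in control and 0.221, 0.258 and 0.155 CPM in labelled libraries, a log2 difference of −6.59 (SE 0.683). Hmmr (chr11:40701388-40733437, minus strand), a spindle protein and hyaluronan receptor, was at 21.6, 22.9 and 21.5 and 0.386, 0.31 and 0.104 CPM, or −6.35 (SE 0.432). Kif23, a motor of cytokinesis, fell by 6.50 (SE 0.507) and Pclaf, which binds the replication clamp, fell by 6.74 (SE 0.771). Each of these 4 genes was below 1 CPM in all 3 labelled libraries. At day 0 Kif23 was already called lower (−1.08), while Pclaf (−1.01), Hmmr (−0.717) and Ccnb2 (−0.535) were not called. Without labelled day 0 replicate 1, an alternative chosen after seeing the data, all 4 were called lower at day 0 by edgeR. The differences were then −2.24 for Pclaf, −1.74 for Kif23, −1.61 for Ccnb2 and −1.23 for Hmmr. All 4 passed the interaction as lower at day 7.

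Other falls of this size were in genes of the interferon and interleukin 1 systems. Il1rn (chr2:24336860-24351491, plus strand), the secreted antagonist of the interleukin 1 receptor, was at 83.1, 77.6 and 71.4 CPM in the control libraries and at 0.221, 0.31 and 0.466 CPM in the labelled libraries, or −7.83 (SE 0.822). Iigp1, an interferon-inducible GTPase, went from 44.4 ± 2.5 to 0.322 ± 0.287 CPM, or −7.10 (SE 0.85), Oasl2, related to the antiviral oligoadenylate synthetases, from 45.1 ± 2.08 to 0.609 ± 0.503 CPM, or −6.18 (SE 0.66), and Gm4951 from 36.8 ± 2.46 to 0.172 ± 0.181 CPM, or −7.67 (SE 1.02). All 4 were called higher in the labelled libraries at day 0, with log2 differences of 5.83 for Il1rn, 2.28 for Iigp1, 3.24 for Oasl2 and 2.99 for Gm4951. These 4 day 0 sizes rest in part on labelled day 0 replicate 1. In an alternative chosen after seeing the data, without that library, they were 4.36 for Il1rn, 0.91 for Iigp1, 2.25 for Oasl2 and 1.15 for Gm4951, and all 4 were still called higher by edgeR. The interaction was −13.66 for Il1rn with all libraries, and all 4 genes also passed it without labelled day 0 replicate 1, the library with the highest level of each of them at day 0.

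**Figure D2:**
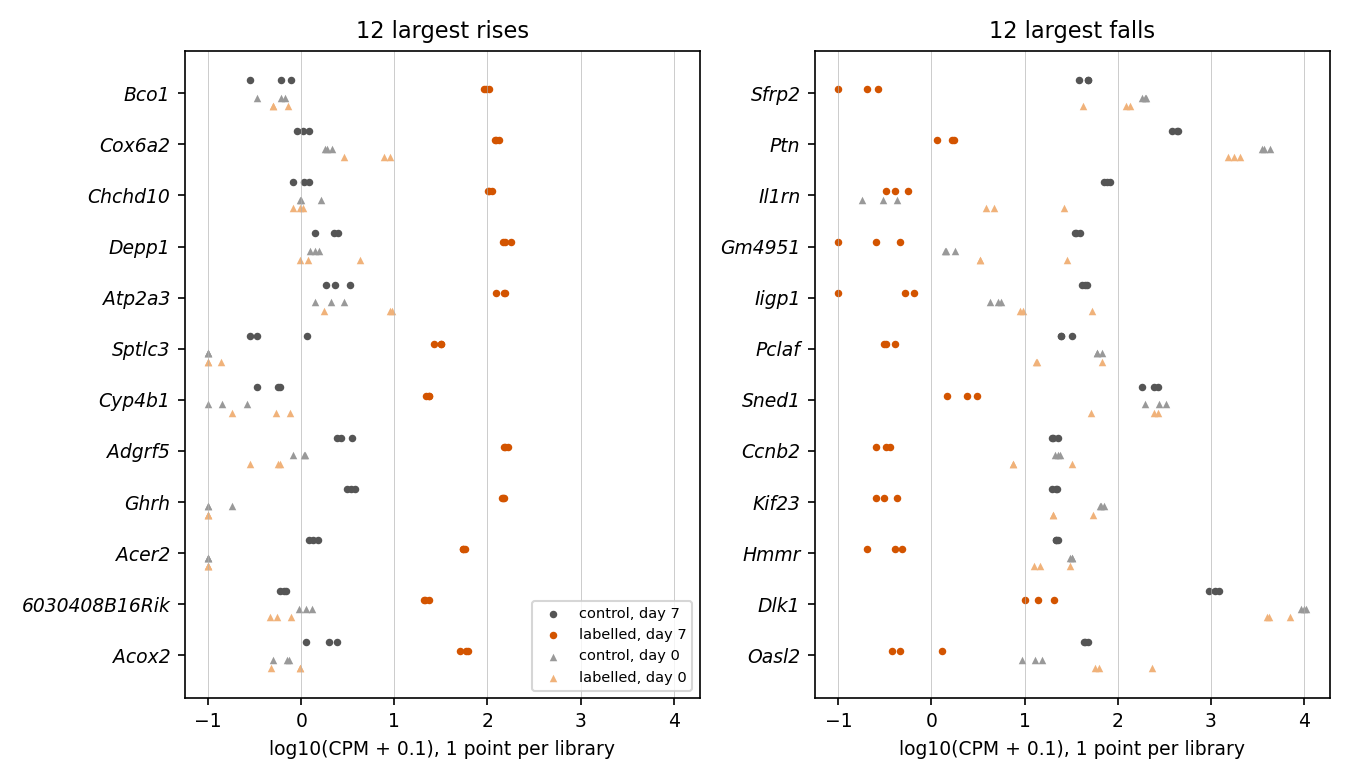
The 12 largest rises (left) and 12 largest falls (right) are drawn with 1 point per library as log10(CPM + 0.1), circles for day 7 and triangles for day 0, dark for control and orange for labelled. At day 7 the 2 groups do not overlap for any of these genes, while at day 0 labelled libraries spread more widely for Il1rn, Iigp1 and Pclaf.

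In absolute terms the largest gains were in genes of fat storage and energy metabolism. Fabp4, the fatty acid binding protein of fat cells, was at 4261, 3528 and 5261 CPM in the control libraries and at 16138, 14014 and 11106 CPM in the labelled libraries, a log2 difference of 1.66 (SE 0.253). All 3 labelled libraries lay above all 3 control libraries. Aldoa, an enzyme of glycolysis, rose by 1.90 (SE 0.176) from 2442 ± 33.2 to 9133 ± 1064 CPM, and Atp5b, the catalytic subunit of ATP synthase, by 1.85 (SE 0.125) from 1609 ± 29.7 to 5802 ± 407 CPM. The metallothionein Mt1, which binds zinc and copper, rose by 2.02 (SE 0.265) from 1599 ± 352 to 6474 ± 564 CPM. Lpl, the lipase that releases fatty acids from lipoproteins, rose by 0.97 (SE 0.133), although it was called lower at day 0 (−0.41). The gains were spread widely, since the 10 largest made up 12% of the summed gain and 241 genes made up 50% of it.

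The largest absolute losses were in matrix genes and complement. C3, the central complement protein, went from 7396 ± 449 to 1382 ± 172 CPM, or −2.42 (SE 0.132). Among matrix genes, the proteoglycan Bgn went from 7041 ± 307 to 1240.5 ± 142 CPM, or −2.50 (SE 0.209), and the collagens Col1a2, Col1a1 and Col6a3 had differences of −3.55 (SE 0.139), −4.21 (SE 0.145) and −1.08 (SE 0.149). Col1a1 stood at 3046, 2954 and 3079 CPM in the control libraries and at 147, 165 and 179.6 CPM in the labelled ones. For Col6a3 the difference between labels was not called different at the 2 days, with an interaction of 0.46 (edgeR adjusted p = 0.0794).

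Some genes had no count at all in 1 of the groups, and their folds are lower bounds with a floor of 3 counts over the 3 libraries. 6 genes that rose had 0 counts in control and 142 that fell had 0 counts in the labelled libraries. Cyp2b10, a cytochrome P450 induced by xenobiotics, reached 3.15 ± 0.807 CPM in the labelled libraries and was at least 71.5-fold higher. The phosphate transporter Slc34a2 and the liver isoform of glycogen synthase, Gys2, were at least 29.9-fold and at least 26.4-fold higher, and 4933402E13Rik at least 29.6-fold. In the other direction Mx1, an interferon-induced antiviral GTPase, was at 11.1 ± 2.56 CPM in control, and its level under the other label was at least 212-fold lower. P4ha3, a collagen prolyl hydroxylase subunit, was at least 174-fold lower and Ppl, the desmosomal protein periplakin, at least 53.7-fold lower. Such bounds reflect counting error alone, and PCR copies of a molecule are not told apart in these counts.

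The gene lists that follow hold 1527 entries in 54 lists and were drawn up with earlier results of these data known, so their counts describe the lists and do not test them. Each list is read against 30.2% of all tested genes higher, 33.4% lower, and a median of −0.052. Adipocyte genes were mostly higher. Of 23 tested, 19 rose and 2 fell, at a median log2 difference of 1.61. The insulin-responsive glucose transporter Slc2a4 was at 36.2, 33.2 and 36.8 CPM in control and 272, 290.0 and 339.7 CPM in labelled libraries, a log2 difference of 3.09 (SE 0.161). Agpat2, which makes the triglyceride precursor phosphatidic acid, rose by 2.58 (SE 0.135) and the triglyceride lipase Pnpla2 by 2.37 (SE 0.142). The beta-3 adrenergic receptor Adrb3 fell, from 3.7 ± 0.379 to 0.511 ± 0.184 CPM, or −2.85 (SE 0.494). Adipoq, the adipokine adiponectin, did not pass in the main fit, with 468 ± 14.2 and 679.7 ± 57.9 CPM and no overlap between the groups. With only the 6 day 7 libraries, 20 of the 23 were called higher and 3 lower. No member, Adipoq included, was then left without a call.

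Fibroblast and preadipocyte genes were lower almost throughout. Of 23 tested, 21 fell and 1 rose, at a median log2 difference of −2.33. Pdgfra, the growth factor receptor that marks fat cell progenitors, was at 1150.2, 1077 and 1092 CPM in control and 59.9, 66.6 and 63.1 CPM in labelled libraries, or −4.13 (SE 0.105). The matrix protein Postn fell by 3.60 (SE 0.106). The exception was Zfp423, a factor of preadipocyte commitment, with a log2 difference of 0.42 (SE 0.121) that lost its call under total count scaling (0.17). At day 0, 14 of these genes were already lower and 3 higher, at a median log2 difference of −0.71. In libraries made from whole cultures, fewer cells of a type and less RNA of that type per cell cannot be told apart.

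Markers of other cell types were counted in the same way, and their part in the differences above was not tested. Several defining markers were at or near 0, while others such as Spp1, Sox9 and Ncam1 were well above it. Of 11 macrophage and blood cell markers found in the files, 3 were tested, 2 fell and 0 rose. Their summed level was 13.5 to 16.3 CPM in control and 6.61 to 7.40 CPM in labelled libraries, Adgre1 and Tyrobp had 0 counts in all 6, and Ptprc had 2 counts over the control group and 0 over the labelled group. Of 13 skeletal muscle markers, 4 were tested, 2 rose and 2 fell, and the sum was 14.8 to 18.4 against 33.8 to 44.3 CPM. The muscle regulators Myod1 and Myog had 0 counts in all 6 libraries. Des, an intermediate filament protein, rose by 1.47 (SE 0.305) and Acta1, an actin, by 2.15 (SE 0.435). Des alone supplied most of the muscle sum in each group, its mean going from 13.4 ± 1.38 to 37.1 ± 5.63 CPM. The 2 falls were larger on the log2 scale and reached −5.95. The list median was therefore negative, −1.57, or −0.571 when a bound replaced members without counts. Of 13 bone and cartilage markers, 7 were tested, 5 fell and 1 rose, and the sum went from 294 to 334 CPM in control to 65.0 to 73.5 CPM. Bglap and Acan had 0 counts, the secreted phosphoprotein Spp1 went from 164 ± 22.4 to 21.3 ± 3.74 CPM, Sox9, a cartilage transcription factor, fell by 2.22 (SE 0.132) and the phosphatase Alpl rose by 2.10 (SE 0.369). Of 11 endothelial and mural markers, 5 were tested, 1 rose and 1 fell, with sums of 14.3 to 16.7 and 3.51 to 3.93 CPM, and Kdr had 1 count over the control group and 0 over the other. The gene that fell was Notch3, at 13.4 ± 1.36 and 1.26 ± 0.73 CPM, which made up most of the control sum. The 1 tested epithelial marker of 12 did not pass (it was called lower under total count scaling), with sums of 1.47 to 1.62 and 1.14 to 2.70 CPM, and Epcam had 1 count, in the control group. Of 14 neural markers, 8 were tested and 4 fell, with sums of 129 to 141 and 31.9 to 39.5 CPM, most of it from Ncam1, an adhesion molecule at 125 ± 6.69 and 30 ± 3.4 CPM.

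Lists of transcription factors showed changes in both directions. Among nuclear receptors, ligand-gated factors, 10 of 28 rose and 9 fell, at a median log2 difference of 0.23 that became −0.012 under total count scaling (8 higher and 9 lower). Esrra, a regulator of mitochondrial genes, was at 30.2, 28 and 38.3 CPM in control and 157, 149 and 174 CPM in labelled libraries, or 2.31 (SE 0.13), with no overlap. Rxrb, a partner of many nuclear receptors, rose by 1.20 (SE 0.111). The vitamin D receptor Vdr fell by 1.66 (SE 0.204) and Nr2f1 by 2.07 (SE 0.163). Of 15 Kruppel-like factors, 4 rose and 3 fell (4 and 6 under total count scaling), at a median of −0.084, led by Klf15, a glucocorticoid-responsive metabolic regulator, at 2.54 (SE 0.231), and Klf9, another glucocorticoid target, at 1.66 (SE 0.139). Klf5, an early factor of fat cell formation, fell by 2.29 (SE 0.314).

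Among patterning factors, the homeobox list leaned lower. Of 30 homeobox factors outside the Hox clusters, 16 fell and 5 rose, at a median log2 difference of −0.61. Prrx2, a mesenchymal factor, was at 77, 77.8 and 70 CPM in control and 8.61, 10.9 and 9.47 CPM in labelled libraries, or −2.95 (SE 0.223), and Dlx1 fell by 4.97 (SE 0.29) after being called higher at day 0 (1.28). Irx3, an obesity-associated regulator of fat cell precursors, rose by 1.92 (SE 0.119) and its relative Irx2 by 1.48 (SE 0.154). Of 20 forkhead factors, 7 fell and 2 rose (5 higher and 7 lower with DESeq2), at a median of −0.117. That is 45% called, against 63.6% of all tested genes. Foxm1, which drives mitotic genes, fell by 3.01 (SE 0.339) and Foxo1, a factor restrained by insulin, rose by 0.87 (SE 0.107). Of 6 Sox factors, 3 fell, with Sox4 at −1.89 (SE 0.122), and 2 rose, with Sox11 at 2.51 (SE 0.416). Of 4 T-box factors, Tbx15 fell by 1.17 (SE 0.156) and Tbx3 by 1.51 (SE 0.225). Tbx2 rose by 0.82 (SE 0.248), a call it lost under total count scaling.

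Signalling systems of development were mostly lower. In the Hedgehog pathway, which patterns tissue through receptors at the primary cilium and Gli factors, 12 of 14 genes fell and 1 rose, at a median log2 difference of −1.43. Gas1, a co-receptor, was at 539.8, 489.6 and 513 CPM in control and 85, 95.9 and 111 CPM in labelled libraries, or −2.40 (SE 0.147). The transcription factor Gli3 fell by 2.74 (SE 0.193) and the ciliary protein Evc2 by 1.19 (SE 0.105), while the co-receptor Boc rose by 1.26 (SE 0.127), having been lower at day 0 (−1.61). In the Notch pathway, 12 of 21 genes fell and 3 rose, with the receptor Notch1 at −2.54 (SE 0.226) and the coactivator Maml2 at −2.02 (SE 0.131). Psen2, a catalytic subunit of the gamma-secretase that cuts Notch, rose by 1.00 (SE 0.116). Hippo pathway genes were split, with 7 higher and 10 lower of 25. The coactivator Wwtr1 (TAZ) rose by 1.03 (SE 0.125) and the upstream suppressor Nf2 by 1.05 (SE 0.0919), while the receptor kinase Axl fell by 2.17 (SE 0.117) and the cofactor Vgll3 by 3.38 (SE 0.178).

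Ligands and receptors of cell guidance were mostly lower. Of 15 ephrins and Eph receptors, which signal at cell contacts, 12 fell and 1 rose, at a median log2 difference of −1.64, and Ephb3 was at 48.2, 40.6 and 48.9 CPM in control and 6.23, 4.39 and 5.75 CPM in labelled libraries, or −3.07 (SE 0.14). Of 25 semaphorins, plexins and neuropilins, 16 fell and 1 rose (0 under total count scaling), at a median log2 difference of −1.42. The plexin Plxnb1 was at 11, 11.4 and 11 CPM in control and at 0.165, 0.0516 and 0.259 CPM in labelled libraries, or −6.09 (SE 0.27). Its paralog Plxnb2 fell by 2.19 (SE 0.119), and Nrp1, a co-receptor for semaphorins and VEGF, fell by 1.95 (SE 0.101) at day 7 and had the same direction at day 0 (−1.97).

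Growth factor systems showed a mixed picture with named exceptions. All 11 tested genes of the FGF list were called, 8 lower and 3 higher, at a median log2 difference of −1.45 (−1.34 with the bound used for a member without counts). Fgf7, a ligand made by mesenchyme, fell by 3.41 (SE 0.17) and the receptor Fgfr2 by 2.05 (SE 0.126). Fgf1, induced by Pparg in fat tissue, rose by 2.35 (SE 0.532) at a low level of 5.29 ± 1.00 CPM, and the receptor-like Fgfrl1 rose by 1.06 (SE 0.123). Among MAP kinase feedback genes 7 fell and 4 rose of 18. Dusp6, the phosphatase that restrains ERK, fell by 2.33 (SE 0.208) and Etv1, an ETS factor downstream of ERK, fell by 2.80 (SE 0.309), whereas the phosphatases Dusp8, Dusp10 and Dusp1 rose by 2.69 (SE 0.28), 1.42 (SE 0.183) and 0.92 (SE 0.163). Of 20 angiogenic factors, 11 fell and 5 rose. Cxcl12, a chemokine of stromal cells, was at 803, 739 and 789 CPM in control and 18.1, 17.5 and 25.7 CPM in labelled libraries, or −5.25 (SE 0.165). Angptl4, a fasting-induced inhibitor of lipoprotein lipase, rose by 2.27 (SE 0.21) to 1008 ± 45.7 CPM, Vegfb by 1.37 (SE 0.129) and the peptide hormone Apln by 1.24 (SE 0.131).

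Brakes on G protein and cytokine signalling were called at shares of 66.7% and 65%, near the 63.6% of all tested genes. Of 9 RGS genes, which speed up GTP hydrolysis by G proteins, 5 fell and 1 rose. Rgs16 was at 14.8, 13.9 and 14.4 CPM in control and 0.331, 0.31 and 0.104 CPM in labelled libraries, or −5.83 (SE 0.316), and Rgs4 fell by 4.52 (SE 0.539). Of 20 STAT factors and cytokine brakes, 7 rose and 6 fell, which became 4 and 11 under total count scaling, and the median was −0.21. The suppressors Socs1 and Socs3 fell by 3.36 (SE 0.301) and 2.43 (SE 0.176), while the kinase Jak3 rose by 1.94 (SE 0.2), Stat5a by 1.17 (SE 0.138) and Stat6 by 0.87 (SE 0.114).

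Ion channels and pumps included some of the largest changes. Of 28 calcium genes, 10 rose and 12 fell. Besides Atp2a3, the cation channel Trpv2 rose by 2.96 (SE 0.27) and Stim1, the sensor of calcium in the endoplasmic reticulum, by 0.89 (SE 0.119). The T-type channel Cacna1g was at 355, 295 and 351 CPM in control and 14.3, 14.2 and 17.9 CPM in labelled libraries, or −4.43 (SE 0.158), the channel subunit Cacnb2 fell by 2.99 (SE 0.169), and Orai2, a channel of store-operated entry, by 2.59 (SE 0.161). Of 12 potassium channels, 5 fell and 2 rose. The acid-sensitive channel Kcnk3, known from fat cells, was at 58.8, 52.1 and 59.9 CPM and 246, 274 and 332 CPM, or 2.32 (SE 0.237), and the voltage-gated Kcnd1 fell by 4.41 (SE 0.307).

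Transporters of metals and lipids were split. Of 27 genes of zinc and iron handling, 7 rose and 6 fell, at a median log2 difference of 0.14 that turned to −0.107 under total count scaling (7 higher and 11 lower). Aco1, the cytosolic aconitase that senses iron, rose by 1.40 (SE 0.129) and Ncoa4, the receptor for ferritin degradation, by 2.24 (SE 0.234). Steap4, a metalloreductase, fell by 3.41 (SE 0.333), from 132 ± 9.24 to 12.5 ± 1.31 CPM, although it had been higher at day 0 (3.75), and the iron exporter Slc40a1 fell by 1.79 (SE 0.279). Of 32 ABC transporters, 14 fell and 8 rose. The cholesterol transporter Abcg1 rose by 1.90 (SE 0.309) and the mitochondrial Abcb8 by 1.50 (SE 0.16), while the neighbouring genes Abca9 and Abca8a fell by 4.45 (SE 0.295) and 3.76 (SE 0.252).

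Cell junction and cytoskeleton genes were lower in larger numbers than higher. Of 17 junction genes, 9 fell and 6 rose. The adhesion molecules Jam2 and Jam3 fell by 4.93 (SE 0.202) and 3.23 (SE 0.123), and the desmosomal plakophilin Pkp2 rose by 2.69 (SE 0.182). Of 16 intermediate filament and septin genes, 12 fell and 1 rose, at a median log2 difference of −0.75. Synm (synemin) was at 34.1, 30.5 and 33.6 CPM in control and 1.32, 1.14 and 0.932 CPM in labelled libraries, or −4.85 (SE 0.296), Lmnb1, a lamin of the nuclear envelope, fell by 2.29 (SE 0.3), and Des was the gene that rose. Of 28 microtubule and motor genes, 11 fell and 4 rose. The microtubule-binding Map1a and Map1b moved in opposite directions, by −2.39 (SE 0.116) and 2.58 (SE 0.164).

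Membrane traffic leaned higher. Of 28 genes of the COPI and COPII coats and golgins, which carry cargo between the endoplasmic reticulum and the Golgi, 14 rose and 1 fell (8 and 4 under total count scaling), at a median log2 difference of 0.30. Sar1b, the GTPase that starts COPII assembly, was at 68.1, 71.6 and 63.1 CPM in control and 174, 147 and 132 CPM in labelled libraries, or 1.16 (SE 0.123). At day 0, 10 genes of this list were lower and 0 higher, and 20 of 28 passed the interaction in the higher direction. Of 38 Rab GTPases, 15 rose and 9 fell, which turned to 8 and 13 under total count scaling. Of 25 genes of caveolae and endocytic coats, 10 rose and 4 fell, which turned to 7 and 8. The caveolar coat genes Cavin2 and Cavin3 rose by 1.38 (SE 0.155) and 1.36 (SE 0.2) and the caveolar ATPase Ehd2 by 1.20 (SE 0.143), while the dynamins Dnm1 and Dnm3 fell by 2.20 (SE 0.143) and 3.65 (SE 0.313).

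Autophagy genes rose in most cases. Of 37 tested, 26 rose and 3 fell, at a median log2 difference of 0.73 (21 and 5 under total count scaling). Bnip3, a receptor for the removal of mitochondria and a hypoxia target, was at 334, 320.3 and 295 CPM in control and 1547, 1402 and 1389 CPM in labelled libraries, or 2.19 (SE 0.152). Atg101, of the kinase complex that starts autophagy, rose by 2.38 (SE 0.18) and Atg16l1, which places LC3 lipidation on membranes, by 1.27 (SE 0.103). The phosphoinositide-binding Wipi1 fell by 1.00 (SE 0.184).

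**Figure D3:**
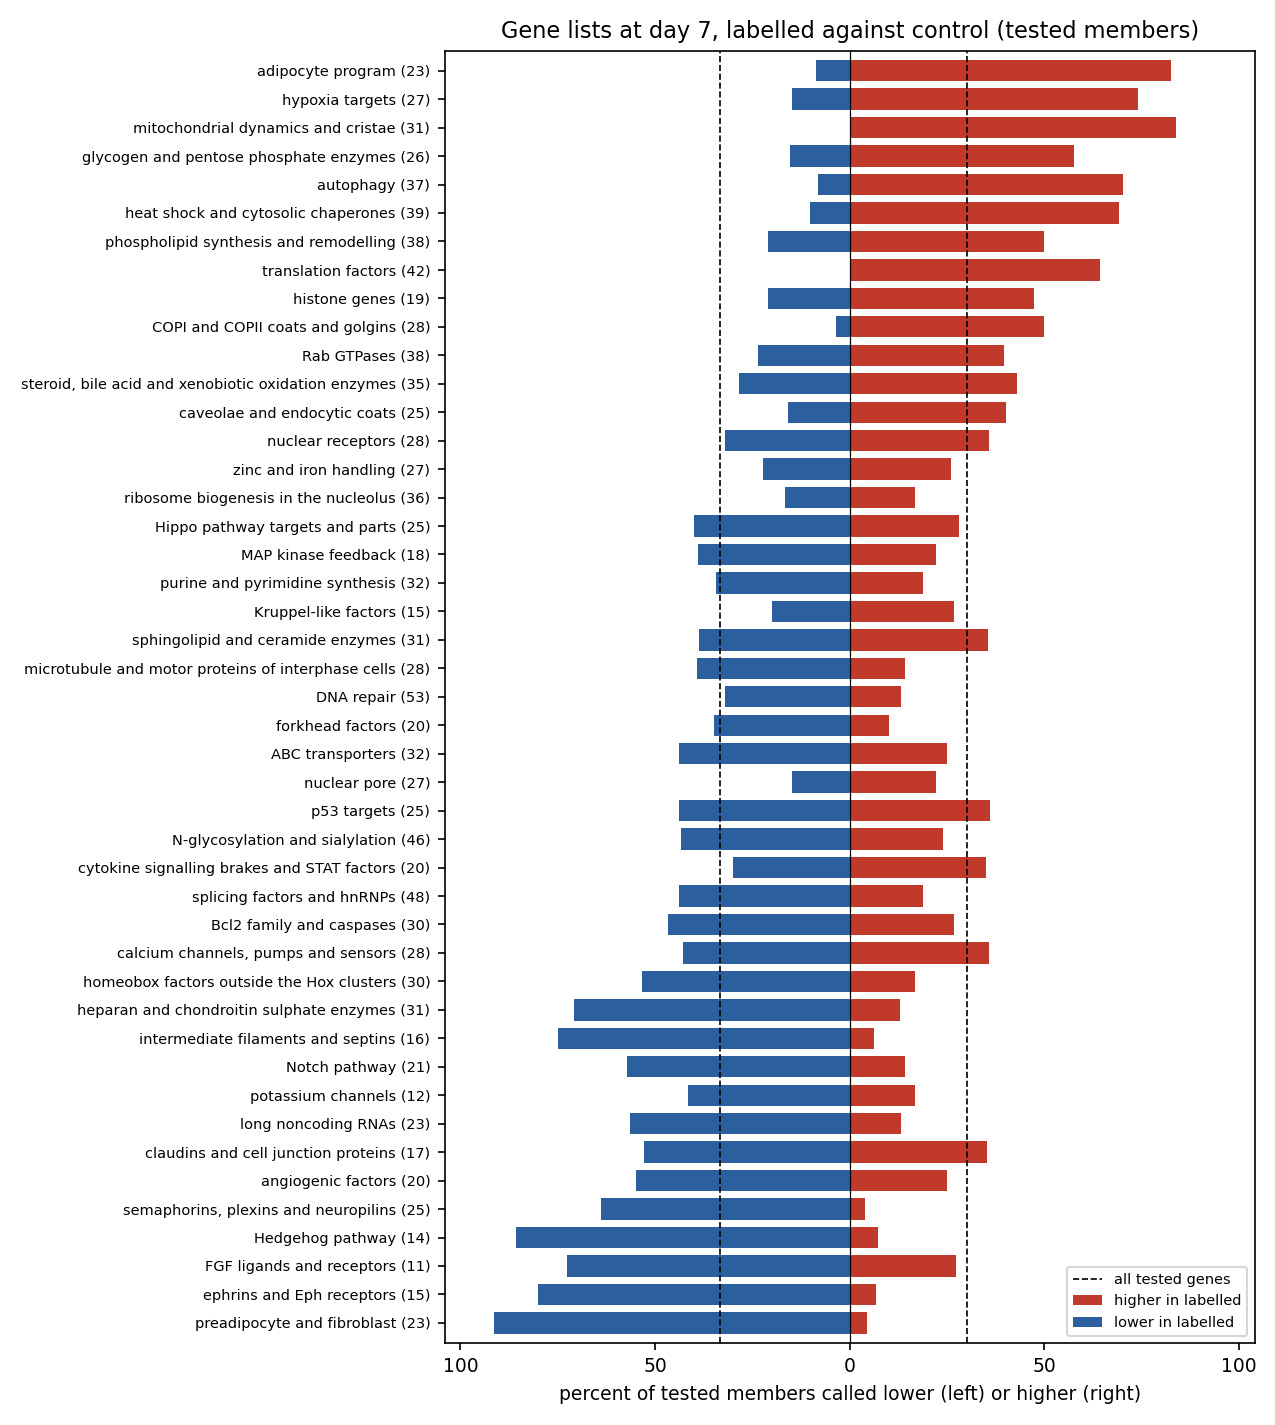
For the 45 lists with at least 10 tested members (number in brackets), bars give the percentage of members called lower (left) and higher (right), ordered by median log2 difference, and dashed lines give 33.4% and 30.2% for all tested genes. Adipocyte, hypoxia and mitochondrial dynamics lists are at the top, and fibroblast, ephrin and FGF lists at the bottom.

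Lists of the nucleus and of RNA were smaller in effect. Of 48 splicing factors, 21 fell and 9 rose, at a median log2 difference of −0.21. Ptbp1, a repressor of exons, rose by 0.58 (SE 0.107) while its paralog Ptbp2 fell, from 32.3 ± 0.828 to 9.31 ± 2.05 CPM. Srsf7 fell by 1.01 (SE 0.132). Of 27 nuclear pore genes, 6 rose and 4 fell, which turned to 4 and 11 under total count scaling, with Seh1l and Nup155 at 0.79 (SE 0.11) and −1.19 (SE 0.127). Genes of ribosome biogenesis had 6 higher and 6 lower of 36, which became 2 and 13 under total count scaling. Of 19 histone genes, 9 rose and 4 fell, which turned to 6 and 7 under total count scaling. The variant Macroh2a2 rose by 1.40 (SE 0.119), and values of the near-identical replication histones are uncertain because reads may fall on several copies.

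Translation factors were higher as a group. Of 42 tested, 27 rose and 0 fell, at a median log2 difference of 0.47 (16 and 3 under total count scaling). Eif4ebp1, which holds back cap-dependent initiation when mTOR is inactive, was at 337, 374 and 288 CPM in control and 949, 956 and 1083 CPM in labelled libraries, or 1.58 (SE 0.133). The initiation factor subunits Eif3c and Eif1 rose by 1.08 (SE 0.0989) and 1.20 (SE 0.133). Long noncoding RNAs went the other way. Of 23 tested, 13 fell and 3 rose at day 7, at a median log2 difference of −0.95, whereas 10 were higher and 0 lower at day 0. Dnm3os fell by 4.73 (SE 0.393) and Kcnq1ot1 fell by 3.41 (SE 0.284). Both are transcribed opposite to another gene, and whether the counting used strand is not given in the sources used here, so their reads cannot be told apart from those of the partner gene. Pvt1 fell by 1.79 (SE 0.185) and had been higher at day 0 (0.95).

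Stress and cell fate lists differed in direction. Of 39 heat shock and chaperone genes, 27 rose and 4 fell, at a median log2 difference of 0.55. Dnajb1, a partner of HSP70, was at 51, 58.2 and 51.2 CPM in control and 182, 179 and 197 CPM in labelled libraries, with no overlap and an edgeR adjusted p of 3.6e-07. The small heat shock proteins Hspb6 and Hspb7 rose by 1.86 (SE 0.188) and 5.03 (SE 0.329), and Hspa1a fell by 0.91 (SE 0.216), with reads that its near-identical copy Hspa1b may share. Hypoxia targets were higher, 20 of 27 against 4 lower, at a median log2 difference of 1.15. Mxi1, an antagonist of MYC, was at 41.5, 47.8 and 35 CPM in control and 229, 209.8 and 211 CPM in labelled libraries, or 2.39 (SE 0.129), and Egln1, the oxygen sensor that marks HIF for decay, rose by 1.54 (SE 0.107). The HIF subunit Epas1 fell by 0.81 (SE 0.157).

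Apoptosis, p53 and repair genes were split. Of 25 p53 targets, 9 rose and 11 fell, where 12 were higher and 1 lower at day 0. The cell cycle inhibitor Cdkn1a (p21) was at 378, 402 and 317 CPM in control and 1011, 1076 and 1221 CPM in labelled libraries, or 1.59 (SE 0.121), and Btg2 and Tigar rose by 1.50 (SE 0.123) and 2.09 (SE 0.181). Ckap2, a spindle protein, fell by 5.14 (SE 0.368) and the death receptor Eda2r by 2.61 (SE 0.182). Of 30 apoptosis genes, 14 fell and 8 rose. Bmf, a killer protein of the Bcl2 family, fell by 3.35 (SE 0.181) and the death receptor Fas by 2.72 (SE 0.147), while Cycs, the cytochrome c of respiration and apoptosis, rose by 2.60 (SE 0.202), from 10.5 ± 1.53 to 64.1 ± 16.9 CPM. Of 53 repair genes, 17 fell and 7 rose. Fancd2, of crosslink repair, fell by 3.78 (SE 0.343), while the base excision enzymes Ung and Mutyh rose by 2.12 (SE 0.21) and 2.34 (SE 0.338).

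Among metabolic lists not tied to the central pathways, genes of mitochondrial shape and cristae were the most uniform. Of 31 tested, 26 rose and 0 fell, at a median log2 difference of 1.09 (23 and 1 under total count scaling), and 1 was higher and 0 lower at day 0. Lonp1, a protease of the mitochondrial matrix, was at 214, 214 and 228 CPM in control and 871, 920.3 and 982 CPM in labelled libraries, or 2.08 (SE 0.121). Chchd3, of the complex that shapes cristae junctions, rose by 1.72 (SE 0.0983) and the prohibitin Phb2 by 1.50 (SE 0.0997). Of 26 glycogen and pentose phosphate genes, 15 rose and 4 fell, at a median log2 difference of 0.79. Gyg, the primer of glycogen, was at 95.2, 94.1 and 88 and 454, 441 and 514 CPM, or 2.34 (SE 0.11), Pgm1, which interconverts glucose phosphates, rose by 2.02 (SE 0.142), and the glycogen synthase Gys1 by 1.52 (SE 0.121). Rpia, of the pentose phosphate pathway, fell by 0.70 (SE 0.121).

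Membrane lipid enzymes were called in both directions. Of 38 phospholipid genes, 19 rose and 8 fell, at a median log2 difference of 0.50. The phosphatidate phosphatases Lpin1 and Lpin3 rose by 2.45 (SE 0.175) and 4.37 (SE 0.327) and the phospholipase Pla2g12a by 2.88 (SE 0.219). The lysophospholipid acyltransferases Lpcat1, Lpcat2 and Lpcat4 fell by 2.11 (SE 0.197), 5.58 (SE 0.44) and 3.22 (SE 0.159). Lpcat2 was at 12.5, 11.5 and 12.1 CPM in control and 0.386, 0.103 and 0.259 CPM in labelled libraries. Of 31 sphingolipid genes, 11 rose and 12 fell. Sptlc2 fell by 1.18 (SE 0.0886) in contrast to its paralog Sptlc3, Cers2, the synthase for very long chain ceramides, rose by 1.20 (SE 0.103) and Cers1 fell from 14.9 ± 1.26 to 4.28 ± 0.708 CPM, and the sphingosine kinase Sphk1 fell by 2.95 (SE 0.204).

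Oxidation enzymes for steroids, bile acids and xenobiotics went both ways, with 15 higher and 10 lower of 35 (12 and 12 under total count scaling). Ephx2, the soluble epoxide hydrolase, was at 9.44, 8.62 and 10.7 CPM in control and 211, 204 and 262 CPM in labelled libraries, or 4.55 (SE 0.261). Cyp1b1, a P450 of steroid and retinoid metabolism, was at 1286, 1236 and 1229.7 and 149, 142 and 127 CPM, or −3.17 (SE 0.119). Cyp7b1, which hydroxylates oxysterols, fell by 4.09 (SE 0.211) and Akr1c14 by 4.31 (SE 0.192). In nucleotide synthesis 11 genes fell and 6 rose of 32. Impdh1, of guanine nucleotide synthesis, rose by 1.91 (SE 0.104) and the salvage enzyme Hprt by 1.38 (SE 0.12), while Rrm2, a subunit of ribonucleotide reductase, fell by 2.40 (SE 0.344).

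Enzymes of matrix sugar chains were mostly lower, and those of N-glycosylation less so. Of 31 enzymes of heparan and chondroitin sulphate, the sugar chains of matrix proteoglycans, 22 fell and 4 rose, at a median log2 difference of −0.62. The sulphotransferases Hs6st2 and Hs6st1 moved apart, at −3.99 (SE 0.341) and 1.39 (SE 0.109). Chst2 was at 26.9, 28.8 and 27.9 CPM in control and 2.15, 2.69 and 2.95 CPM in labelled libraries, or −3.42 (SE 0.131), the chondroitin synthase Chsy1 fell by 2.29 (SE 0.128), and B3gat3, which completes the linker to the core protein, rose by 1.16 (SE 0.107). Of 46 genes of N-glycosylation and sialylation, 20 fell, 11 rose and 15 were not called. The median was −0.205, and −0.451 under total count scaling. The branching enzymes Mgat3 and Mgat4b stood at −2.76 (SE 0.109) and 1.98 (SE 0.145), and the sialyltransferases St3gal2 and St3gal3 at −0.91 (SE 0.0904) and 2.01 (SE 0.188).

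The day 0 libraries show which of these differences were present before induction. At day 0, 3449 of the same 13356 genes (25.8%) were called, 1710 higher (12.8%) and 1739 lower (13%). Under total count scaling this split was 2764 and 1137. Of the 4027 genes higher at day 7, 601 were also higher at day 0, which is 14.9% of the day 7 list and 35.1% of the day 0 list, 385 were lower and 3041 were not called. Of the 4464 genes lower at day 7, 902 were also lower at day 0, which is 20.2% of the day 7 list and 51.9% of the day 0 list, 629 were higher and 2933 were not called. The median absolute log2 difference over all tested genes was 0.31 at day 0 and 0.705 at day 7. The first of the labelled day 0 replicates differed from the other 2, with a TMM factor of 1.02 against 1.098 and 1.096. Without it 6565 genes were called at day 0, 3058 higher and 3507 lower. Then 1142 genes were higher and 1659 lower at both days. Over the tested genes, which are not independent of each other, the Spearman correlation of the log2 differences at the 2 days was 0.0787, with no p given.

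The difference between the 2 label effects, tested as an interaction, passed for 6933 genes (51.9%), of which 3186 (23.9%) were higher and 3747 (28.1%) lower at day 7 relative to day 0. Of the genes higher at day 7, 2763 passed in the higher direction, and of the genes lower at day 7, 3278 passed in the lower direction. Without labelled day 0 replicate 1, 4190 genes passed higher and 4556 lower. Under total count scaling 1803 passed higher and 5418 lower (25% of calls higher, against 46%), with a median interaction of −0.452 against −0.0562. Among the genes described above, Dlk1, Ptn, Col1a1 and Postn were lower at both days, with −3.60 at day 7 and −1.88 at day 0 for Postn. For Cox6a2, Atp2a3 and Bnip3 the label effect was higher at both days and passed the interaction as larger at day 7. Rab12, at −1.97 (SE 0.125), and Nrp1 had nearly the same difference at both days, with interactions of −0.043 (edgeR adjusted p = 0.852) and 0.021 (edgeR adjusted p = 0.911).

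**Figure D4:**
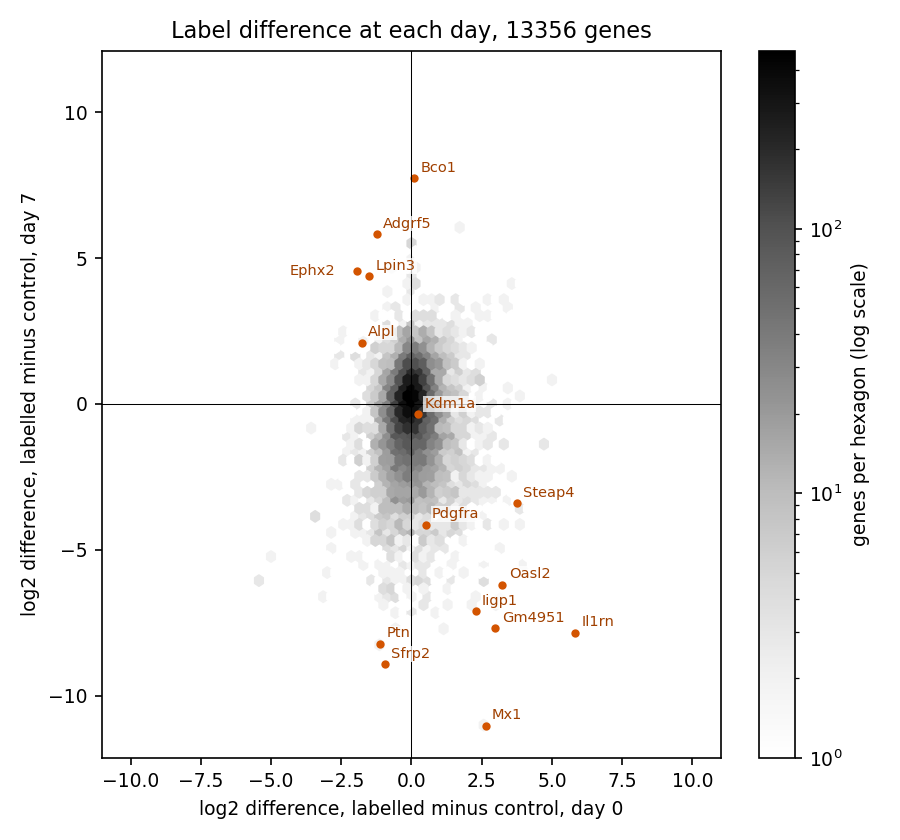
Hexagons count the 13356 tested genes (grey scale, log) by log2 difference between labels at day 0 (horizontal) and day 7 (vertical), and orange points are named genes. The spread is wider along the day 7 axis, and Il1rn, with 5.83 at day 0 (4.36 without labelled day 0 replicate 1) and −7.83 at day 7, lies in the lower right quadrant with Mx1, whose day 7 value rests on 0 counts in the labelled libraries.

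Genes grouped by the letters of their symbol, a grouping chosen after the values were seen, gave broad families outside the lists. Each is read against 30.2% of all tested genes higher and 33.4% lower. The largest with a marked lean was the zinc finger stem Zfp, mostly DNA-binding proteins of the C2H2 type, with 220 of 341 tested genes lower (64.5%) and 28 higher (8.21%) and a median of −0.81. At day 0 the same genes had 34 higher and 16 lower, with a median of 0.15. Their median level was 13.4 CPM, and many members have similar sequences, so reads may be shared between them. Protocadherin beta genes, adhesion proteins encoded in a cluster, had 15 of 20 lower and 0 higher, and the stem Il, of interleukins and their receptors and related genes, had 23 of 36 lower and 4 higher. Motor proteins of the stem Kif had 19 of 31 lower, centrosomal genes of the stem Cep 19 of 39 and ubiquitin ligases of the stem Trim 23 of 44. On the other side, cytochrome c oxidase genes of the stem Cox had 21 of 23 higher and 0 lower, with a median of 1.09, and the large subunit of the mitochondrial ribosome, stem Mrpl, 46 of 49 and 0 lower. Protein phosphatase genes of the stem Ppp had 32 of 59 higher and 6 lower, and ubiquitin-conjugating genes of the stem Ube 18 of 38 and 4. The stem Slc of solute carriers was balanced, with 78 higher and 72 lower of 227, which became 60 and 91 under total count scaling. Cytosolic ribosomal proteins of the stem Rpl mostly did not pass, with 7 higher and 6 lower of 48 (0 and 14 under total count scaling) and a median of −0.10, and their reads may be shared with processed pseudogenes.

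Gene types are read against all tested genes, of which 30.2% were higher, 33.4% lower and 63.6% called. By annotated gene type, 3848 of 12387 protein-coding genes rose and 4121 fell (64.3% called). Of 500 long noncoding RNA genes 88 rose and 179 fell (53.4% called), so the share that rose was low and the share that fell was near that of all genes. Of 25 small nucleolar RNA genes 0 rose and 16 fell, and these short RNAs often lie in introns of host genes, whose reads may be counted with them. Of 39 microRNA genes 5 rose and 9 fell (35.9% called), in libraries whose fragment selection is not given in the sources used here.

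The genes that rose and fell were not spread evenly over the chromosomes. On chromosome 19, 48.6% of 488 tested genes rose and 21.7% fell, with a median log2 difference of 0.43 at day 7 and 0.18 at day 0. On chromosome X, 18.1% of 425 genes rose and 47.8% fell, and the median was −0.49 at day 7 and −0.052 at day 0. On chromosome 16, 17.4% of 414 rose and 40.8% fell, and the median was −0.32 at day 7 and −0.30 at day 0, so the lower level of genes on this chromosome was also seen before induction. The other 17 chromosomes had 23% to 35.2% of genes higher and 29.7% to 39.4% lower, against 30.2% and 33.4% overall.

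**Figure D5:**
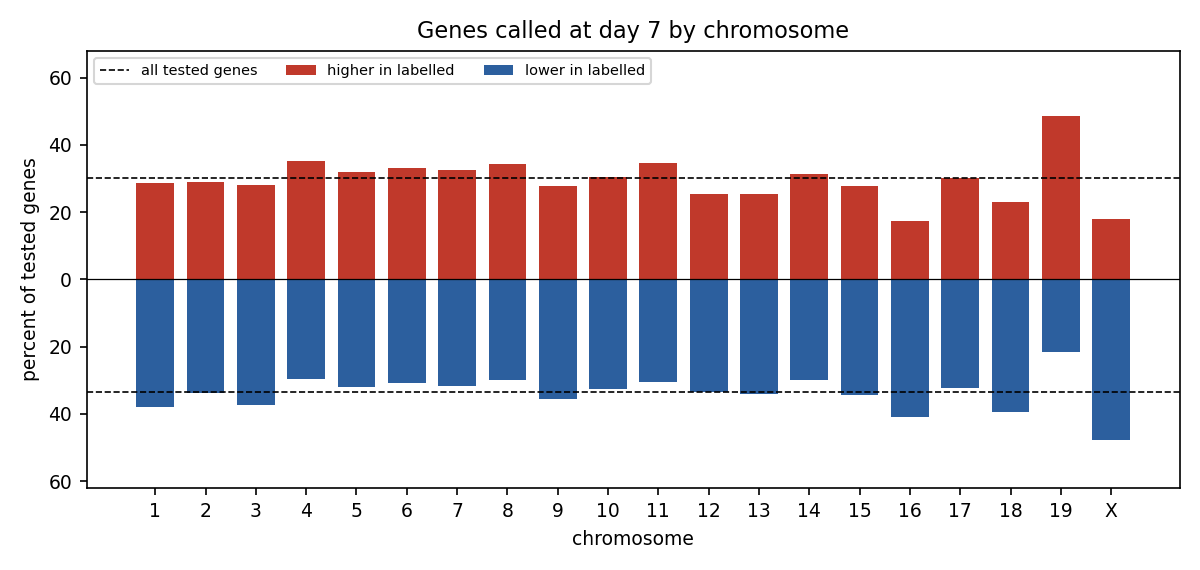
Bars give the percentage of tested genes on each chromosome that were higher (up) and lower (down) in the labelled libraries at day 7, and dashed lines give the 30.2% and 33.4% of all tested genes. Chromosome 19 has the tallest upper bar (48.6%) and chromosome X the longest lower bar (47.8%).

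Neighbouring genes changed together in some places. The longest run of tested genes that all rose held 14 genes on chr2:30133746-30447807, from Tbc1d13 to Ptpa, with log2 differences of 0.367 to 2.51, and includes Crat, the carnitine acetyltransferase of mitochondria, and Miga2, a factor of mitochondrial fusion. A run of 9 on chr11:69901816-70000011, from Neurl4 to Phf23, includes Slc2a4 and the autophagy gene Gabarap. A run of 9 on chr19:6975048-7198062 includes Vegfb and Stip1, a co-chaperone of HSP90. Among genes that fell, a run of 21 protocadherin gamma genes on chromosome 18 had nearly equal differences (−1.20 to −1.15), and these transcripts share their last exons, so they are not independent measurements. A run of 13 zinc finger genes on chr13:67312998-67729173, from Zfp595 to Zfp65, had differences of −2.31 to −0.585, and a run of 12 on chr1:87945121-89155087 holds the Ugt1a genes, which also share exons. These runs are a description, set beside the 63.6% of all tested genes that were called, and were not tested.

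Genes that rose had LSD1 peaks at their start more often than genes that fell, in lists of ChIP-seq peaks (regions bound by LSD1) from 1 sample each. Within 1 kb of the start, 69.3% of 3968 genes that rose, 46.8% of 4352 that fell and 61.2% of 4739 not called had a peak in the list from control cells at day 7, which holds 8303 peaks. In the list from labelled cells, with 27221 peaks, the shares were 89.2%, 70.6% and 80.7%. Abundance moved with these shares. Among the 25% of genes with the highest level, 82.3% of those that rose, 73% of those that fell and 83% of those not called had a peak in the control list, and in the lowest 25% the shares were 21.1%, 16.8% and 24.9%. Within each of 4 level classes of equal size, genes that rose had a smaller share with a peak of the control list than genes not called. Nrf1 is a transcription factor of mitochondrial and housekeeping genes. It had 1629 peaks at day 7, in a sample whose title names LSD1 cells and whose genotype label says control. A peak lay at 15.1% of genes that rose, 8.62% of those that fell and 14.8% of those not called. Within each of the 4 level classes, the Nrf1 share was also smaller for genes that rose than for genes not called. In the highest 25% it was 18.5% against 20.2%. Among the named genes with the largest changes, the list from labelled cells had a peak at 1 of 11 rises with a position (Chchd10) and at 3 of 12 falls. Read depth and cut-offs of the peak lists are not given in the sources used here, so the lists were not compared with each other.

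Short sequence motifs at start sites also differed in share between the groups, described here with no test over 10091 genes with a promoter of 300 bases (250 before to 50 after the start) in the RefSeq table of GRCm38. The motifs were searched as exact letters on both strands. The ETS motif CCGGAAG was in 22.4% of promoters of genes that rose, 13.5% of those that fell, 20.5% of those not called and 8.91% of all promoters in the table. The YY1 motif AAGATGGC had 6.31%, 3.18%, 5.08% and 2.77%, the NRF1 core GCGCATGC 6.57%, 4.43%, 5.71% and 2.73%, and the cyclic AMP response element TGACGTCA 4.09%, 2.27%, 3.54% and 1.8%, in the same order. The E-box CACGTG had 11.1%, 8.86%, 10.3% and 7.17%. Against these, the TATA box TATAAA was more frequent among genes that fell (8.07%) than among those that rose (6.66%), as were the interferon response motif GAAANNGAA (7.95% and 6.25%), TEAD CATTCC (13.2% and 11.2%) and NF-kB GGGANTTCC (2.49% and 1.81%). Among genes not called the shares were 6.4%, 6.56%, 11.9% and 2.58%, in the same order, so NF-kB was not more frequent among genes that fell. In all promoters they were 13.6%, 8.53%, 14.6% and 1.69%. The TATA, interferon response and TEAD motifs were thus less frequent among genes that fell than in all promoters. The CCAAT box differed little, with 40% and 40.4%. AP-1 TGANTCA was in 5.08% and 5.43%, and the estrogen-related receptor motif TCAAGGTCA in 0.19% and 0.212%. Each motif was searched on its own, so a promoter can count for several, and matches that overlap another motif were kept.

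Promoter stretches of 180 bases before the start are shown for 3 genes that rose and 2 that fell, chosen after their values were seen because they carry these motifs. Capitals mark matches to the NRF1 core, the cyclic AMP response element, the ETS and YY1 motifs and the CCAAT box on either strand, and the sequences run 5′ to 3′ on the strand of the gene, from GRCm38.
Cycs: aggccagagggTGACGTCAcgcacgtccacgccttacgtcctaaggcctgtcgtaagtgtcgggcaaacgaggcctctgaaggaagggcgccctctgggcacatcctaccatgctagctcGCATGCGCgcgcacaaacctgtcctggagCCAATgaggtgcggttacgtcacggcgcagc
Nup50: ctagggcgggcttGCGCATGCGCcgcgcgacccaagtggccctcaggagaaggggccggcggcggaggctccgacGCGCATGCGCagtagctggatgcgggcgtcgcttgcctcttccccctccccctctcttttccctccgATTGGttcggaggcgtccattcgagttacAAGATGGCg
B3gat3: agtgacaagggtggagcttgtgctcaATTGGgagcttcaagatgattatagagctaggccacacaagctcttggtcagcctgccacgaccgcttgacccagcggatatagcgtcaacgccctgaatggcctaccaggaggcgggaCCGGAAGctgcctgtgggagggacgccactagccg
Hmmr: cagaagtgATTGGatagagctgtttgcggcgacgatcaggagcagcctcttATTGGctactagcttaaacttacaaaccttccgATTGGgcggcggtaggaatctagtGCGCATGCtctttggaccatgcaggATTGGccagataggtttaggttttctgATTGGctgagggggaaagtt
Ccnb2: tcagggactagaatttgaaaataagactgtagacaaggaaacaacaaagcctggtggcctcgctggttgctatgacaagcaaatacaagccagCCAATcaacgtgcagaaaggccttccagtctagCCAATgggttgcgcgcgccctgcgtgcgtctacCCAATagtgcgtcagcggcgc
The Cycs stretch (chr6:50566570-50566749, minus strand) holds an NRF1 core, a cyclic AMP response element and a CCAAT box, and Cycs was at 9.13, 10.3 and 12.2 CPM in control and 83.4, 57.1 and 51.8 CPM in labelled libraries. The Nup50 stretch (chr15:84923248-84923427, plus strand) holds NRF1 cores at 2 places, a CCAAT box and a YY1 motif whose first base lies 9 bases before the start, and Nup50, of the nuclear pore basket, rose by 0.57 (SE 0.0955). B3gat3 (chr19:8920213-8920392, plus strand) has an ETS motif and a CCAAT box. Hmmr (chr11:40733438-40733617, minus strand) has 5 CCAAT boxes and an NRF1 core, and Ccnb2 (chr9:70421555-70421734, minus strand) has 3 CCAAT boxes, whose first bases lie 87, 54 and 21 bases before the start. An NRF1 core thus stood before genes that rose (Cycs, Nup50) and a gene that fell (Hmmr). The control day 7 list had an LSD1 peak at the start of Cycs, Nup50, B3gat3 and Hmmr and none at Ccnb2. The day 7 Nrf1 list had a peak at the start of Nup50 and Hmmr. It had none at Cycs, although its stretch holds an NRF1 core, and none at B3gat3 or Ccnb2. A match is a description of the letters and not a measured binding site.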

How the data were processed

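Per the labels' protocols, total RNA of 3T3-L1 cells was extracted with Trizol, and the build is mm10, per the submitters' processing notes. Those notes list TopHat2 2, HOMER, DESeq 1.8.3 and edgeR for RNA-seq, and Bowtie2 and MACS 1.41 for ChIP-seq. Which step each tool served, and whether counting used strand, is not given in the sources used here. The deposited RNA-seq values are raw read counts per RefSeq transcript, not normalised by the authors, as their whole numbers show. The deposited peak lists carry the authors' score for each peak, used only to rank peaks within a list.

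Of 30521 transcript rows, 29140 were named from a RefSeq table and 181 from GENCODE, and 1200 stayed unnamed with 0.896% of counts. The transcript with the highest mean count stood for each gene, since transcripts of a gene often hold the same reads. 13356 genes passed edgeR's filter over 4 groups. The main test was edgeR 4.0.16's quasi-likelihood test (R 4.3.3, limma 3.58.1) on all 12 RNA-seq libraries with TMM scaling and group means, two-sided, with Benjamini-Hochberg adjustment over all genes and a threshold of 0.05. The interaction was the label effect at day 7 minus that at day 0. The procedure was tested on simulated data in which few genes changed, evenly in both directions. Here 63.6% of genes were called, so that test does not bear on the choice of scaling. No 2 day 7 replicates of a group agreed within sampling noise. Titles call replicates biological, but nothing says that they came from separate lines, so p-values measure the spread between these libraries, which may be technical.

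Named genes were the 12 largest log2 rises and falls at a mean of at least 10 CPM, the 5 largest CPM gains and losses, the 4 largest of those with 0 counts in 1 group, and up to 3 each way per list with the smallest adjusted p at a mean of at least 1 CPM, among genes called with groups that do not overlap. A defining gene that did not pass could be added, and some named genes are not reported here. Members, lists and rules were chosen with earlier results of these data known. Folds against a group at 0 used 3 counts over the group. Alternatives were other scalings, DESeq2 1.42.0, no filter, summed transcripts, only the day 7 libraries, a replicate block and leaving out libraries. Peaks were matched within 1 kb of RefSeq starts on GRCm38, and motifs were searched in 300-base promoters from RefSeq. The other ChIP-seq samples were not used in the comparison.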

Additional observations from a re-analysis of the deposited data

Results flagged for a closer look

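The label effect at day 7 differed from that at day 0 for a large share of genes, by edgeR's test of the interaction with Benjamini-Hochberg adjustment. It passed with 3186 genes higher and 3747 lower at day 7 relative to day 0. Kdm1a was among them, with an interaction of −0.573, a day 7 difference of −0.34 that passed and a day 0 difference of 0.23 that did not (0.29, called higher, without labelled day 0 replicate 1).

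Among the named genes, 47 were called in opposite directions at the 2 days and passed the interaction. 26 of them were lower in the labelled libraries at day 0 and higher at day 7. Interactions on the log2 scale, for those reported here, were Adgrf5 7.05, 6030408B16Rik 6.32, Lpl 1.38, Zfp423 1.26, Alpl 3.86, Tbx2 2.17, Boc 2.87, Wwtr1 1.5, Fgfrl1 2.69, Sema3g 2.31, Angptl4 3.52, Trpv2 4.22 and Stim1 1.39. Further interactions of this kind were Pkp4 1.69, Golga2 1.07, H3c15 3.35, Sf3a1 0.938, Dnajb1 2.35, Bok 2.9, Egln1 2.42, Ung 2.85, Ormdl3 1.73, Lpin3 5.87, Ephx2 6.5 and Alg14 1.5. 21 genes were higher at day 0 and lower at day 7. Their interactions were Il1rn −13.7, Gm4951 −10.7, Iigp1 −9.38, Oasl2 −9.42, C3 −4.29, Mx1 −13.7, Pdgfra −4.64, Spp1 −4.59, Foxf2 −2.06, Dlx1 −6.26 and Sox12 −1.49. Further values of this kind were Fgf7 −4.13, Fgfr2 −2.57, Rgs4 −6.37, Orai2 −3.42, Steap4 −7.16, Abcb1b −3.06, Pvt1 −2.74, Fas −4.62, Cyp7b1 −5.29 and B4galt5 −3.08. The value of Mx1 rests on 0 counts in the labelled day 7 libraries and depends on the prior count. Zfp423, Tbx2 and Sema3g lost their day 7 call under total count scaling. All of these day 0 values include the labelled library that stood apart from the other 2. Without it, an alternative chosen after seeing the data for the day 0 differences, all 47 kept their day 0 call and their interaction call.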

How the results depend on the processing

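Counts of genes higher and lower at day 7 stayed within 1.5 times of 4027 and 4464 under every alternative run. Without single day 7 libraries they ranged from 3553 to 3747 and from 4054 to 4193. Without the labelled day 0 replicate that stood apart they were 4778 and 5175, with DESeq2 4304 and 4416, and with RLE size factors 4200 and 4342. The interaction count in the higher direction was 1803 under total count scaling against 3186, where the median interaction moved from −0.0562 to −0.452. Of 4269 values of single genes at day 7, 4221 kept direction and call and 48 lost the call, and of 3327 interaction values 44 lost it. These are values of the named genes, nearly all chosen for clear calls in the main fit. The interaction values are of named genes that had passed it. Such shares therefore do not describe all calls. Of 756 list medians 186 moved by more than the allowed spread, as did 95 of 1512 list counts, 21 of 24 peak shares and 23 of 36 motif shares. No value of a single gene reversed, but 14 list medians in 8 lists changed sign, the largest shifts being in lists with few tested members. The lean of some list counts also turned under total count scaling. Rab GTPases went from 15 higher and 9 lower to 8 and 13, and nuclear pore genes from 6 and 4 to 4 and 11. With only the day 7 libraries the skeletal muscle median was 1.46 against −1.57 and the endothelial one 0.02 against −1.27. These medians are not over the same members, since that fit tested 12692 genes against 13356. With the bound used for members without counts, the main muscle median was −0.571. Under total count scaling the median was −0.01 against 0.23 for nuclear receptors, −0.11 against 0.14 for zinc and iron genes and −0.24 against 0.00425 for ribosome biogenesis.

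The replicate block gave 3834 genes higher and 4327 lower, and 3035 and 3506 for the interaction. Replicates of the same number did not deviate together at day 7, with correlations of −0.102, −0.0166 and −0.0314, so the numbers were not taken as pairs.

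At depths of 27512273 to 31008490 counts, genes with few counts limit the comparison: 142 genes that fell had 0 counts in the labelled libraries, so their size is a bound.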
